A study of Zea mays with 45 samples.

Results

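The leaves described here are those of the maize inbred W23 grown outdoors, compared between plants that received the ultraviolet-B (UV-B) of sunlight and plants kept from it. The members were the 3 deposited columns whose titles name W23 leaves under solar UV-B, out of 45 columns in the series, of which 13 compare solar UV-B with its removal and 10 of those belong to landraces. The control leaves grew under polyester (PE), which removes UV-B, and the treated leaves under cellulose acetate (CA), which passes most of sunlight. Both filters were put in place when plants were about 14 days from sowing (7 from germination), so every group grew under plastic. Each column held the log2 ratio of the paired RNAs, labelled in 2 colours, at the spots of 1 cDNA array. The 5 landraces, grown under the same filters, were Mishca, Conico, Confite, Arrocillo and Cacahuacintle. The titles give W23 on 1 array and W23 with the alleles b and pl, of the genes that regulate anthocyanin in maize, on the other, and whether these are 1 stock is not stated. The labels do not give the age of the leaves at harvest or the number of plants behind an RNA. They also do not say whether arrays came from separate plants. The p-values therefore measure only the spread that the fit described below leaves among these arrays.

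UV-B is absorbed by nucleic acids and proteins and is also perceived in plants by the photoreceptor UVR8, which acts on transcription through the factor HY5. Maize leaves exposed to it are known to accumulate flavonoid sunscreens made by the phenylpropanoid pathway, to adjust photosynthesis and to change chromatin, translation and antioxidant genes. In leaf RNA taken in bulk, fewer cells of a type and less RNA per cell cannot be told apart.

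The 3 columns held 2 arrays. On array 1 the solar UV-B leaves, titled with b and pl, were in channel 1, and on array 2 the solar UV-B leaves, titled W23, were in channel 2. Title and channel order were thus the same split and cannot be told apart. The third column equalled the log2 of the arithmetic mean of both arrays' ratios at all 12220 spots measured on both, with a largest absolute difference of 9.8e-10, and was left out. Array 1 had 12236 measured spots and 27.7% blank, against 16247 and 4.02% on array 2. The SD between the 3 spots of a probe had a median of 0.0558 on array 1 and 0.0245 on array 2. The spots of a probe were thus closer to each other on array 2, which does not measure the precision of the ratio itself. The files give ratios with no intensities, so leaf identity could not be checked by level; the mesophyll markers lhcb5, Cab-m7, psbs1 and pdk1 and the bundle sheath markers ssu1 and rca1 were all measured on both arrays. Which of the paired RNAs is the numerator of the ratio is not stated in the sources used here. The values are therefore given as the positive and negative side of the deposited ratio after each array was centred on its median (0.48 before centring on array 1 and 0.27 on array 2), with no statement of which leaves had more RNA.

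Of 5640 probes, 4034 were measured on both W23 arrays and on enough landrace arrays to be tested. The mean log2 ratio of W23 lay between -1.17 and 1.28, with the 5th percentile at -0.75 and the 95th at 0.39. Its negative tail was the longer: 350 probes lay 1.5-fold or more below 0 and 47 as far above it, and at a log2 ratio of 1 or more the counts were 44 and 2. The tail was longer on array 1, where 196 probes lay below -1 against 16 on array 2. Both arrays gave the same sign for 2556 probes, or 63.4%, and correlated across the tested probes at r = 0.47. The distance of either array from their mean had a median of 0.136, against 0.194 for the size of the mean itself. The limma fit over 9 arrays of 6 lines, with a term for channel order, called 967 probes at a Benjamini-Hochberg adjusted p under 0.05, which is 24.0% of those tested. Of these, 609 (15.1% of those tested) were negative and 358 (8.87%) positive, and 936 had the same sign on both arrays. The plot of array 1 against array 2 shows the calls in opposite corners. The smallest adjusted p was 0.0152. The channel term takes up the part of the difference between the W23 arrays that Mishca and Conico share. The SEs and p-values thus do not measure the distance between the W23 arrays. At NIP2-1 these had -0.14 and 0.80, with an SE of 0.08. The calls rest on the channel term and on the spread borrowed across probes: limma called 0 probes without the channel term (814 at an unadjusted p under 0.05) and 2 without moderated variances (1020 unadjusted). Leaving out W23 array 2 gave 2028 calls. Where a W23 array is left out, here and below, W23 is 1 array assumed to vary like the landraces, which alone supply the spread. Its value is then also moved by the channel effect estimated from Mishca and Conico, called the channel shift below. Such fits therefore measure neither the spread of W23 nor its remaining array alone. The calls also rest on how the Conico ratios run. With their sign turned and the channel order kept limma called 0 (602 unadjusted), and with sign and channel order both turned the 967 stay by construction. Without centring the split turned, with 1704 positive and 170 negative calls. Probe values, missing where all spots of a probe are blank, were also counted in 20 columns of the same table from other comparisons. There 7.21% were missing for negative calls and 12.5% for positive calls, against 11.1% for all tested. The 1130 probes measured on array 2 but not on array 1 had an array 2 median of 0.09, against -0.02 for those tested, and do not enter any count.

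**Figure D1:**
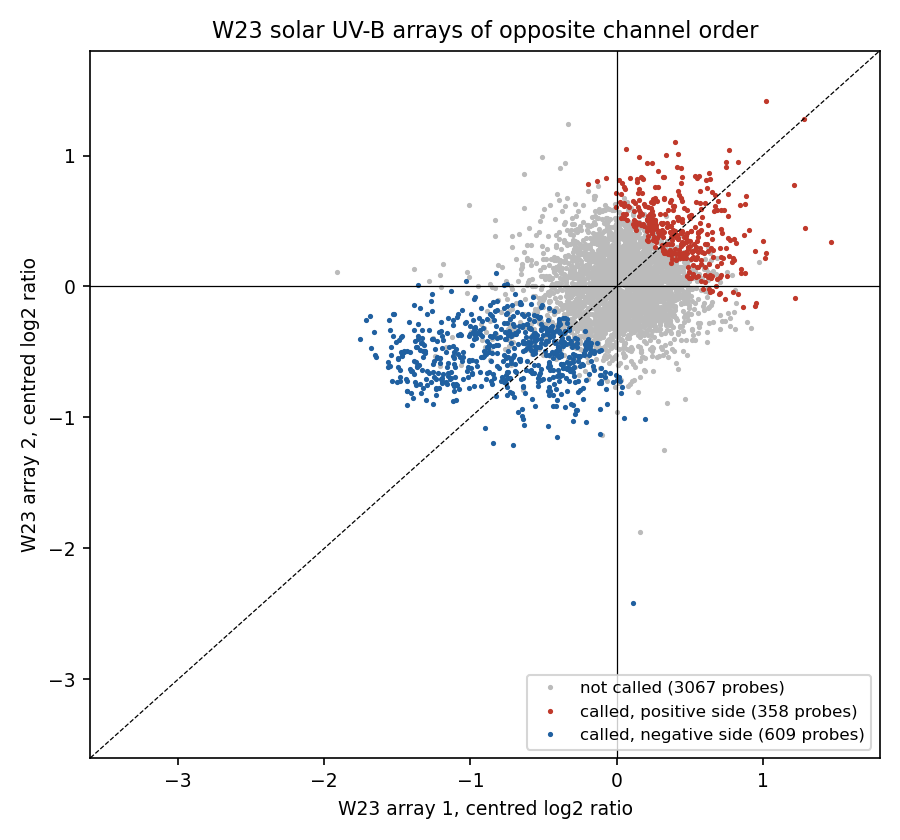
Centred log2 ratio of each of the 4034 tested probes on W23 array 1 (horizontal axis) and array 2 (vertical axis), with the dashed line marking equal values. Blue points are the 609 probes called on the negative side, stretched along array 1, red points the 358 called on the positive side, and grey points were not called.

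Values also followed the order of the spots. The numbering fell into 8 runs of equal length, and each run was cut at its middle, giving 16 sections. In the W23 mean the median of every odd section, the front of a run, was below 0, from -0.17 to -0.09, and that of every even section, the back of a run, was above 0, from 0.09 to 0.14. Sections held 16.7% of the variance of array 1 and 21.4% of that of array 2. The odd sections held 505 of the 609 negative calls and 119 of the 358 positive calls, and their W23 values had an SD of 0.37 against 0.25 in the even sections. With each section centred on its own median, 1345 probes (33.3%) were called, 854 of them shared with the 967. Odd sections then held 365 positive and 521 negative calls, even sections 203 and 256. The 1.5-fold counts became 267 negative and 58 positive, so the longer negative tail remained. Whether odd and even sections hold different kinds of cDNA was not tested. Values with sections centred are given below where they change a call.

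**Figure D2:**
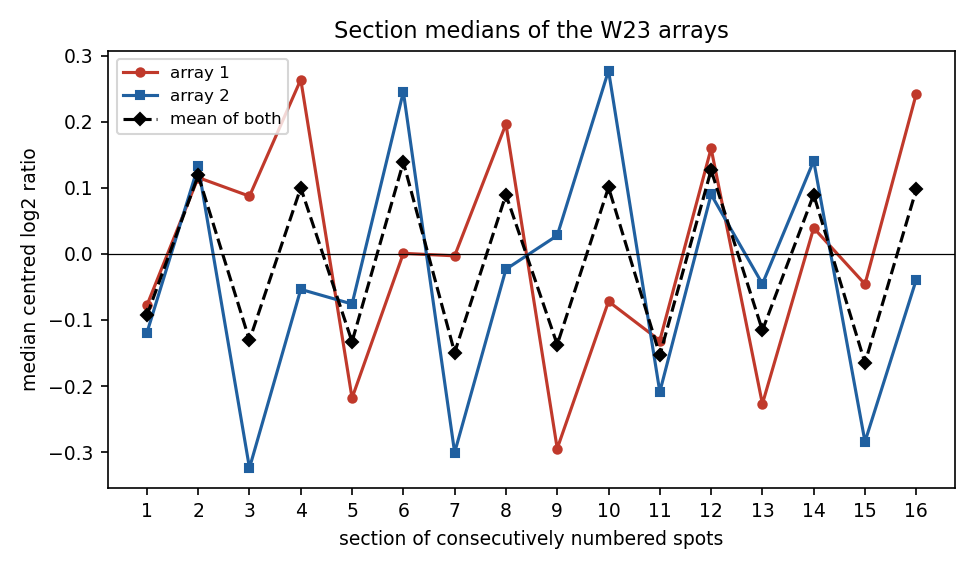
Median centred log2 ratio of the tested probes in each of 16 sections of consecutively numbered spots, for array 1, array 2 and their mean. The mean alternates between odd sections (-0.17 to -0.09) and even sections (0.09 to 0.14), while the single arrays vary more widely and in different sections.

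Gene names were available for 277 tested genes, and 70 of them (25.3%) were called, 39 negative and 31 positive. The named genes farthest on the negative side were a water channel, chloroplast, cell wall and transcription factor genes. PIP1-3, an aquaporin of the plasma membrane, had log2 ratios of -1.49 on array 1 and -0.54 on array 2. Its mean was -1.02 ± 0.12 (SE from limma, n = 2 arrays), a 2.03-fold difference with an adjusted p of 0.0152. The gene crp1, whose product in maize is needed to process and translate chloroplast transcripts of the cytochrome b6f complex, had -1.30 and -0.65, with a mean of -0.97 ± 0.14 (adjusted p = 0.0152). For gbp2 the values were -1.20 and -0.71 (mean -0.96 ± 0.15), and for psiP -1.16 and -0.68 (mean -0.92 ± 0.11). EXPB9, a beta-expansin of the group that loosens cell walls and is abundant in grass pollen, had -1.21 and -0.59. In all 5 genes array 1 was farther from 0 than array 2, and both arrays lay below -0.50.

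The next 5 on the negative side held regulators. The values of dbf1, a maize factor that binds the dehydration-responsive element, were -1.53 and -0.21, a mean of -0.87 ± 0.18 (adjusted p = 0.0245). The asparagine synthetase gene asn1 had -1.42 and -0.27, with a mean of -0.85 ± 0.21 and an adjusted p of 0.0368 that became 0.0611 without W23 array 1. Array 1 carried most of the mean in both genes. The other asn1 probe had a mean of 0.03. zap1, the maize relative of the floral MADS-box gene APETALA1, had -1.02 and -0.65, and the MADS-box gene m28 had -1.17 and -0.50. Both means were -0.84, with adjusted p of 0.0304 and 0.0152. The sulfhydryl oxidase gene qsox1, whose product forms disulfide bonds in secreted proteins, had -0.99 and -0.66 (mean -0.83 ± 0.18).

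On the positive side a gene with no name beyond its identifier, LOC100125656, was the farthest, with log2 ratios of 1.02 and 1.42 and a mean of 1.22 ± 0.14, or 2.33-fold (adjusted p = 0.0152). The 14-3-3 gene grf1, whose product binds phosphorylated proteins, had 0.75 and 0.91, with a mean of 0.83 ± 0.10 (adjusted p = 0.0152). For pip1-2, an aquaporin of the same subfamily as PIP1-3, the arrays gave 0.42 and 1.01, a mean of 0.72 ± 0.15 on the opposite side to PIP1-3. The catalase gene cat1, whose enzyme removes hydrogen peroxide, had 0.71 and 0.58, and PER1 had 0.57 and 0.73. Both had means of 0.65, and the SEs were 0.12 and 0.08. The arrays differed less in grf1, cat1 and PER1 than in the genes leading the negative side.

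CNX, which encodes the chaperone calnexin of the endoplasmic reticulum, had 0.82 and 0.33, and its adjusted p of 0.0335 became 0.0677 without array 1. DWF1, which in Arabidopsis acts in brassinosteroid synthesis, had a mean of 0.56 ± 0.09 from 0.72 and 0.41. The values of apt1 were 0.75 and 0.29, those of the ribosomal protein gene rpl29 were 0.33 and 0.67, and those of sxd1, the maize tocopherol cyclase gene, were 0.44 and 0.49. The last 2 of these had the smallest SEs of the 20 genes, 0.07 and 0.08, and both arrays lay above 0.30 in each. Centring sections left all 20 on the same side and called, with means of -0.89 for PIP1-3 and 1.12 for LOC100125656.

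**Figure D3:**
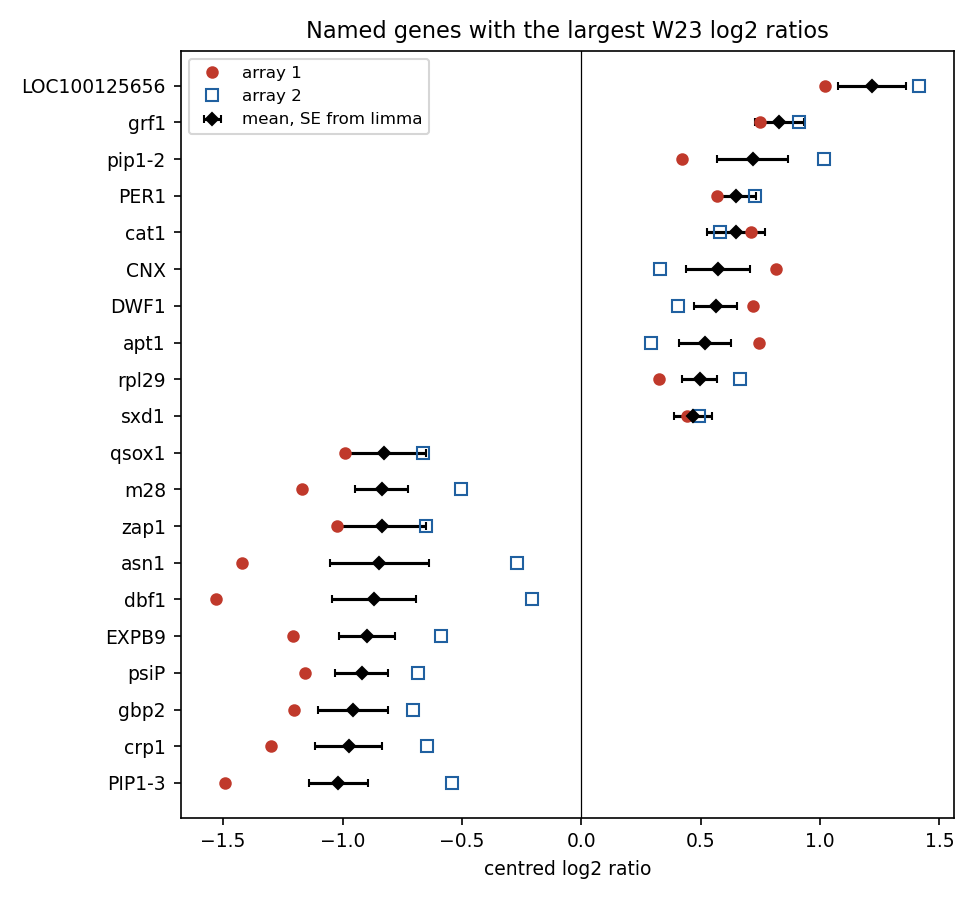
Centred log2 ratios of the 10 named genes farthest from 0 on each side among those called with the same sign on both arrays, for array 1 (circles), array 2 (squares) and their mean with its standard error from limma (diamonds). On the negative side every circle lies farther from 0 than its square, and on the positive side either array can be the farther.

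Genes were then grouped by function into 15 lists, whose counts of calls are each to be read against the share over all genes. Against a background of 24.0% of probes and 25.3% of named genes called, 5 of 9 tested aquaporin genes were called, 3 positive and 2 negative, and the list median was -0.14 against 0.01 over all probes. With sections centred 3 of the 9 were called, a share close to the 33.3% of all probes, and the median was 0.02. Besides PIP1-3 and pip1-2, PIP1-1 had -0.08 and -0.69 (mean -0.39 ± 0.07, adjusted p = 0.0221), although its other probe gave 0.07. That call ended with sections centred (adjusted p = 0.125) and without either Conico array (0.0581 and 0.0583). NIP2-1, a maize member of the subfamily that carries silicon in grasses, had opposite signs on the arrays, -0.14 and 0.80, with a mean of 0.33 ± 0.08 (adjusted p = 0.0342). The adjusted p rose to between 0.0615 and 0.101 without any 1 of the Mishca or Conico arrays. Close members share sequence, so cDNA probes may not tell PIP1 genes apart.

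Photosynthesis genes stayed mostly near 0. Of 10 light reaction genes, crp1 was called on the negative and ftr1 on the positive side, and the median was 0.02. ftr1, for the reductase that passes electrons from ferredoxin to thioredoxin, had 0.21 and 0.35 (mean 0.28 ± 0.08, adjusted p = 0.0481). Its adjusted p lay between 0.0571 and 0.168 when W23 array 2 or any Mishca or Conico array was left out. psbs1, the photosystem II subunit that lets excess light energy be lost as heat, had 0.40 and 0.16 (mean 0.28 ± 0.14). Its adjusted p of 0.175 became 0.0206 with sections centred. It was also called without array 1, where the array 2 value of 0.16 was moved by the channel shift. The antenna genes lhcb5 and Cab-m7 had means of 0.15 ± 0.11 and -0.13 ± 0.09 and were not called. The plastid sigma factor gene sig1 had a mean of -0.19 ± 0.08 (adjusted p = 0.113, and 0.0217 with sections centred). In this list only crp1 lay more than 0.30 from 0.

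Of 10 genes of carbon fixation and the C4 cycle, 1 was called, with a list median of -0.03. It was rca1, Rubisco activase, which reopens inhibited Rubisco sites, with -0.34 and -0.28 (mean -0.31 ± 0.08, adjusted p = 0.0485). The call ended with sections centred (0.0719) and when W23 array 1 or any Mishca or Conico array was left out (0.0830 to 0.130). The Rubisco small subunit gene ssu1 had 0.01 and -0.31, and pdk1, the enzyme that regenerates the C4 acceptor, had 0.71 and -0.22. Both had opposite signs on the arrays, and their adjusted p were 0.189 and 0.246; without array 2 that of pdk1 was 0.00151. The C4 genes me4, a malic enzyme, and pDCT1, a plastid dicarboxylate transporter, had means of 0.18 ± 0.09 and -0.30 ± 0.09, and the triose phosphate translocator TPT -0.15 ± 0.08, none of them called. With array 1 as the only W23 array the adjusted p was 0.0186 for me4 and 0.00432 for pDCT1.

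Phenylpropanoid genes, which lead to lignin and flavonoids, gave 0 calls by limma in the 4 genes tested, and 0 at an unadjusted p under 0.05. PAL1, phenylalanine ammonia-lyase at the entry of the pathway, had -0.28 and -0.05 (mean -0.17 ± 0.10, adjusted p = 0.269, and 0.00955 without array 2). The other genes of the list were nearer to 0: 4CL, for the ligase that activates cinnamic acids, had -0.05 ± 0.10, cncr1, a cinnamoyl-CoA reductase of lignin synthesis, -0.07 ± 0.09, and the laccase LAC1 0.10 ± 0.10. The median of 4 was -0.06. None of the 4 belongs to the flavonoid branch alone, so that branch was not tested here. The list has 5 genes on the arrays.

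Antioxidant and detoxification genes gave 4 calls in 15 (26.7%, near the 25.3% of named genes), with a median of 0.01. They were cat1, PER1 and sxd1 on the positive side and gsh2, glutathione synthetase, on the negative side, with -0.41 and -0.52 (mean -0.46 ± 0.08, adjusted p = 0.0182). In each of the 4 both arrays had the same sign and lay more than 0.40 from 0. The other 11 had means from -0.24 to 0.33.

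Among 11 chaperone and protein folding genes, 4 were called (36.4%, against 25.3% of named genes). CNX, hsp101 and PDIL1-2 were on the positive and qsox1 on the negative side, and the list median was 0.10. The arrays were unequal for hsp101, the heat shock protein that dissolves aggregates, with 0.03 and 0.65 (mean 0.34 ± 0.08), and had opposite signs for PDIL1-2, a disulfide isomerase, with 0.86 and -0.16 (mean 0.35 ± 0.08). Both had an adjusted p of 0.0312, and without any 1 of the Mishca or Conico arrays it lay between 0.0568 and 0.0977 for hsp101 and between 0.0505 and 0.0866 for PDIL1-2. The other PDIL1-2 probe had a mean of 0.31.

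Translation genes leaned to the positive side: 11 of 13 had a mean above 0, against 149 of 277 named genes. The list median was 0.26 against 0.01 over all probes. Of the 13, 6 were called (46.2%, against 25.3% of named genes), and 5 of the 6 were positive, against 31 of 70 among named genes. After rpl29 the largest were elfa3, an elongation factor, with 0.55 and 0.30 (mean 0.42 ± 0.09, adjusted p = 0.0242), and tif1, an initiation factor, with 0.15 and 0.66 (mean 0.41 ± 0.08, adjusted p = 0.0216). The other elfa3 probe gave 0.36. Both arrays were positive for these 3 genes. On the other side stood the ribosomal protein gene rpl39, with -0.29 and -0.52 (mean -0.40 ± 0.08, adjusted p = 0.0229, and 0.0502 and 0.0503 without either Conico array). With sections centred the list median was 0.19 and 7 of the 13 genes were called, against 33.3% of all probes in that setting.

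Genes of abscisic acid, cold and drought responses lay mostly on the negative side, with a median of -0.68. Of 4 tested, 3 were called, against 25.3% of named genes. After dbf1 came lip15, a bZIP factor known from cold-treated maize, with -0.76 and -0.72 (mean -0.74 ± 0.10, adjusted p = 0.0152), and sfr2, whose Arabidopsis relative remodels chloroplast membrane lipids on freezing, with -0.74 and -0.49 (mean -0.62 ± 0.09, adjusted p = 0.0159). The arrays were close to each other for lip15 and far apart for dbf1. The exception was asr1, induced by abscisic acid, stress and ripening, with 0.40 and 0.02 (mean 0.21 ± 0.14, adjusted p = 0.301), which was called with sections centred (0.0355) and without array 1 (0.00595). The list has 8 genes on the arrays, and 4 of them did not pass the filter on blank spots.

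Sugar metabolism gave 3 calls in 14 (21.4%, against 25.3% of named genes), all negative, and a median of -0.08. The phosphohexose isomerase gene phi1 had -0.90 and -0.52 (mean -0.71 ± 0.10), and its other probes had means of -0.49 and -0.06. The sucrose synthase gene sus2 had -0.77 and -0.52 (mean -0.65 ± 0.09), and pfk1 had -0.31 and -0.63 (mean -0.47 ± 0.08). The adjusted p of phi1 and sus2 was 0.0152 and that of pfk1 0.0168. On the positive side Agp2, a subunit of the enzyme that makes ADP-glucose for starch, had a mean of 0.28 ± 0.09 (adjusted p = 0.0647, and 0.00608 without array 2).

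In the nitrogen list of 8, asn1 was the only call and the median was -0.03. The nitrate reductase gene NNR1 was also negative, with -0.75 and -0.10 (mean -0.43 ± 0.15, adjusted p = 0.0894, and 0.000131 without array 2). Most of the mean came from array 1. The glutamine synthetase genes GLN6 and gs2, which bind ammonium into glutamine, had means of 0.26 ± 0.07 and 0.17 ± 0.09; neither was called. With array 1 as the only W23 array GLN6 had an adjusted p of 0.0452.

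Of 16 signalling genes 5 were called (31.25%, against 25.3% of named genes), 3 positive and 2 negative, with a median of 0.15. Beyond grf1 and gbp2, the small GTPase gene rop7 had 0.23 and 0.65 (mean 0.44 ± 0.08, adjusted p = 0.0198). The protein phosphatase gene PP1 had -0.20 and -0.40 (mean -0.30 ± 0.08, adjusted p = 0.0391), which became 0.0818 to 0.141 without any 1 of the Mishca or Conico arrays. The cytoskeleton list, of few genes, had 3 calls in 4, against 25.3% of named genes. adf2, an actin-depolymerising factor, was negative, with -0.32 and -0.58 (mean -0.45 ± 0.09, adjusted p = 0.0243). The alpha-tubulin gene tua4 had 0.71 and -0.05 (mean 0.33 ± 0.08, adjusted p = 0.0401), and KIN9 had 0.63 and 0.17 (mean 0.40 ± 0.09, adjusted p = 0.0317). Both lost the call when any 1 of several arrays was left out: for tua4 W23 array 2 and each Mishca and Conico array (0.0557 to 0.112), and for KIN9 W23 array 1 and each Conico array (0.0560 to 0.0672). The profilin gene PRO5, whose product binds actin monomers, had -0.30 ± 0.13 and was not called with all arrays. Among the fits that leave out 1 array PRO5 was called only without array 2. There its array 1 value of -0.15 was moved by the channel shift.

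Chromatin genes were called in 2 of 16, both negative, and their median was 0.02. The nucleosome assembly gene nfa104 had -0.60 and -0.43 (mean -0.52 ± 0.09, adjusted p = 0.0183). The histone deacetylase gene Hda1 had -0.44 and -0.38 (mean -0.41 ± 0.10, adjusted p = 0.0361), but its other probe gave 0.29. nfc102, a chromatin assembly factor gene, and mbd113, of the methyl-CpG-binding domain family, had means of -0.25 ± 0.08 and -0.25 ± 0.08, not called at adjusted p of 0.0614 and 0.0642. Both were called with sections centred (0.0190 and 0.0253). In that setting 7 of the 16 were called, and 33.3% of all probes.

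Jasmonate and defence genes were called in 2 of 10, and both were cystatins, inhibitors of cysteine proteases, on opposite sides. psei2 had 0.39 and 0.49 (mean 0.44 ± 0.10, adjusted p = 0.0320) and psei3 -0.63 and -0.48 (mean -0.56 ± 0.09, adjusted p = 0.0174). A further cystatin, psei1, had -0.24 ± 0.08 on 1 probe (adjusted p = 0.0750, and 0.0234 without array 2) and 0.00 on the other, and the cysteine protease gene mir3 0.17 ± 0.09. The jasmonate synthesis gene opr6, an oxophytodienoate reductase, had 0.09 and 0.25 (mean 0.17 ± 0.14, adjusted p = 0.393).

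Markers of other organs were tested in 5 seed and pollen genes, of which EXPB9 was the only call. The embryo storage protein gene globulin-1 had -0.29 and 0.12 (mean -0.08 ± 0.08) and -0.02 on its other probe. The pollen allergen gene Zea m 3 had -0.18 ± 0.09, and ohp2, a relative of the endosperm factor opaque2, 0.11 ± 0.16. None of these 3 was called with all arrays. Zea m 3 was called without array 2 and ohp2 without array 1, where the channel shift enters their values. The list ranged from -0.90 to 0.11, with a median of -0.08, and its part in the other results was not tested.

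**Figure D4:**
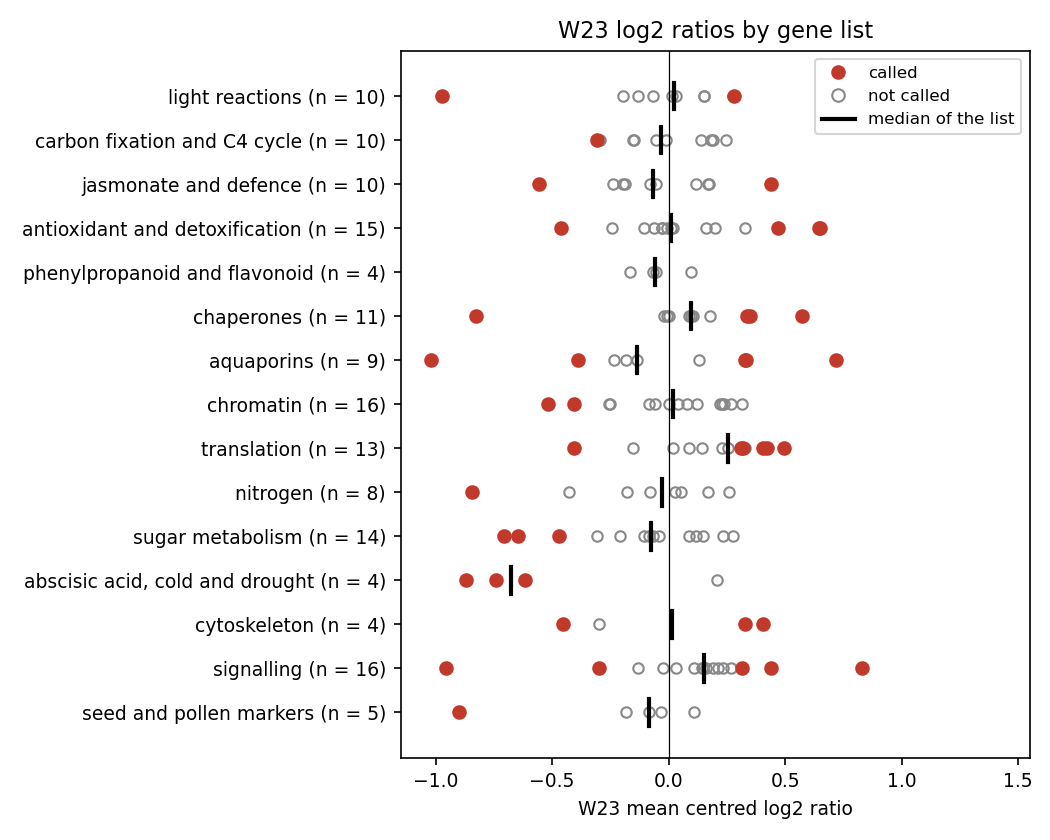
Mean centred log2 ratio of W23 for every tested gene of 15 gene lists, with the number tested in parentheses, filled points for genes called by limma and a bar at the list median. The abscisic acid, cold and drought list has its median at -0.68 and the translation list at 0.26, while the other medians lie between -0.14 and 0.15.

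W23 was then set against the landraces. This comparison takes the ratios of all lines to run the same way, which the sources used here do not state. Across the tested probes the W23 mean correlated with Mishca at r = 0.61 (2 arrays), with Confite at 0.42 (1 array) and with Arrocillo at 0.30 (1 array), but with Cacahuacintle at -0.12 (1 array) and with Conico at -0.26 (2 arrays). With sections centred these were 0.60, 0.54, 0.36, -0.03 and -0.27. They describe probes, which share arrays and position, and carry no test. Over all probes measured on both, the 2 Mishca arrays correlated with each other at -0.24 (0.16 with sections centred). The 2 Conico arrays did so at 0.28 (0.49). W23 array 1 correlated with Mishca array 1 at 0.36 and with Mishca array 2 at 0.25. For W23 array 2 the values were -0.10 and 0.70, so the likeness to the Mishca mean was uneven between its arrays. Of the 967 probes called in W23, Mishca had the same sign at 862 (89.1%, against 72.0% of all tested probes), and Conico at 314 (32.5%, against 39.5%). With the Conico ratios turned, that line would share the sign at 653 (67.5%, against 60.5%). The W23 values spread the widest of the 3 lines with 2 arrays: their SD was 0.34, against 0.17 in Mishca and 0.25 in Conico. The single arrays of Confite and Cacahuacintle each had an SD of 0.35, and that of Arrocillo 0.30. Means of 2 arrays and single arrays are not alike in spread. The 1.5-fold counts were 350 negative and 47 positive in W23, 15 and 4 in Mishca, and 35 and 70 in Conico. They were 226 and 169 in Confite, 111 and 113 in Arrocillo, and 191 and 125 in Cacahuacintle.

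The W23 coefficient differed from the mean of the 5 landraces at 800 probes (19.8% of those tested) by limma at an adjusted p under 0.05. Negative differences numbered 518 (12.8%) and positive ones 282 (6.99%). Confite, Arrocillo and Cacahuacintle are single arrays deposited under both channel orders, so their values are not corrected for channel order. In W23, Mishca and Conico both orders are averaged. The channel term itself was called by limma at 1125 of 4034 probes. A difference from the 5 landraces and a channel effect in the single arrays cannot be told apart. Leaving out the single Cacahuacintle array gave 0 calls, leaving out W23 array 2 gave 2214, and leaving out Conico array 1 gave 501, so the count depends on single arrays. It was 407 of 4310 probes (9.44%) against Mishca and Conico alone, the landraces with both channel orders, and 0 without the channel term (649 at an unadjusted p under 0.05). The count was also 0 with the replicate number as a block in place of the channel (1266 unadjusted). It depends on the direction of the ratios as well. With the Conico ratios turned it was 230 if their channel order is turned too and 0 if it is kept (331 unadjusted), and with the Cacahuacintle ratio also turned it was 0 either way (965 and 249 unadjusted).

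By size, the named genes that differed most on the negative side were m28, zap1, lip15, psiP and qsox1, all described above. At m28 W23 had -0.84, against -0.03 in Mishca, 0.44 in Conico, -0.17 in Confite, 0.08 in Arrocillo and -0.01 in Cacahuacintle. The difference was -0.90 ± 0.13 (SE, adjusted p = 0.0327). At lip15 the landraces ran from -0.23 in Mishca to 0.43 in Cacahuacintle, and the difference was -0.83 ± 0.12 (adjusted p = 0.0327). At psiP they ran from -0.41 in Arrocillo to 0.24 in Cacahuacintle, with a difference of -0.82 ± 0.13 (adjusted p = 0.0327). In each of the 5 genes W23 lay below every landrace as deposited. For zap1 and qsox1 the differences of -0.88 ± 0.22 and -0.80 ± 0.20 (adjusted p = 0.0454 and 0.0455) became -0.51 and -0.44 with sections centred, where neither was called (0.0575 and 0.0625).

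On the positive side the largest difference was at CNX, where W23 had 0.57 and the landraces -0.39 in Mishca, -0.50 in Conico, 0.08 in Confite, -0.36 in Arrocillo and -0.25 in Cacahuacintle. It was 0.86 ± 0.15 (adjusted p = 0.0340), and 4 of the landraces lay on the other side of 0. At cat1 the landraces ran from -0.30 in Conico to 0.38 in Confite (difference 0.70 ± 0.14, adjusted p = 0.0354), and at rop7 from -0.51 in Conico to 0.15 in Confite (difference 0.61 ± 0.09, adjusted p = 0.0327). W23 was above all of them in both genes as deposited, but with the Conico ratios turned it lay within the landraces at rop7. sgb102, annotated as an acetyltransferase of the GNAT family, and SE1B had W23 means of 0.31 ± 0.11 and 0.24 ± 0.09 that were not called (adjusted p = 0.0769 and 0.0857). With sections centred sgb102 had 0.42 and was called (adjusted p = 0.0308). It was also called without array 2, where the channel shift enters its value. Their differences of 0.55 ± 0.12 and 0.55 ± 0.10 passed the test (adjusted p = 0.0395 and 0.0340). Without the Cacahuacintle array none of the 10 differences was called, with adjusted p from 0.0565 to 0.0746. Without the Confite array sgb102 was not called either (0.0643). With the Conico ratios and channels turned m28, lip15, psiP and SE1B were still called (0.0476 to 0.0482) and the other 6 were not (0.0562 to 0.0809).

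**Figure D5:**
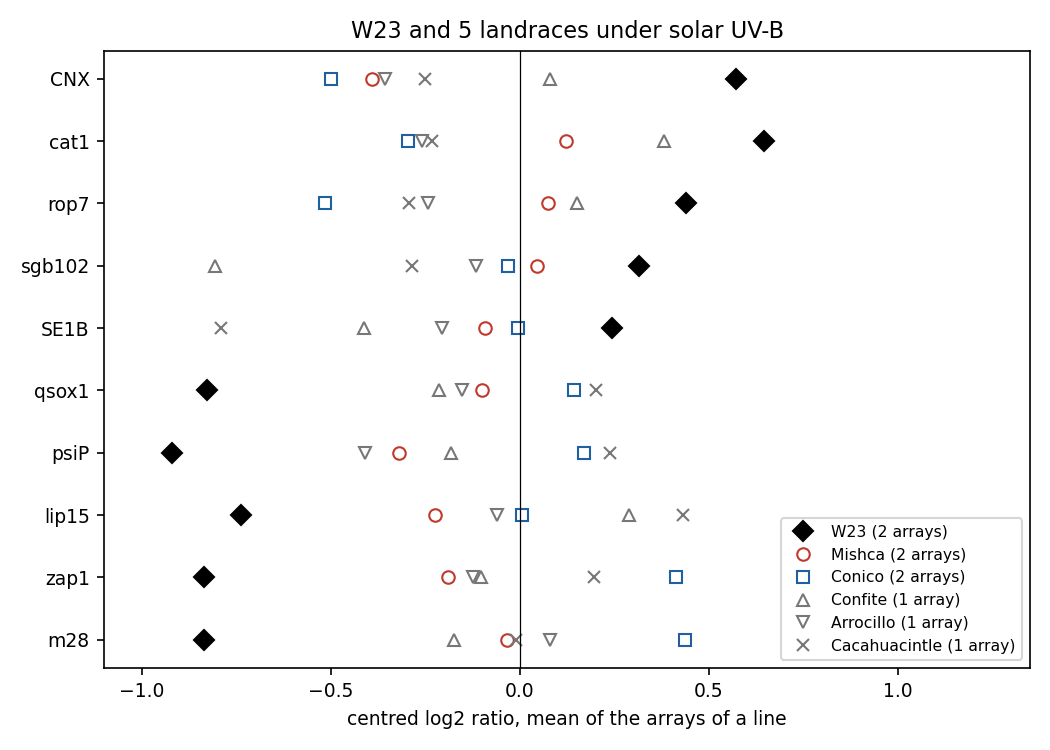
Mean centred log2 ratio of W23 (filled diamonds, 2 arrays) and of each landrace (open symbols, 1 or 2 arrays) for the 5 named genes per side with the largest called difference between W23 and the landrace mean. W23 lies outside the range of the landraces in all 10 genes as deposited, and in 9 with the Conico ratios turned. With the Cacahuacintle ratio turned too it lies outside in 8, SE1B and rop7 being within. The genes were chosen by this difference, so a place outside the range follows in part from the choice. No error bars are drawn because 3 landraces have 1 array.

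At opr6, psbs1 and asr1 W23 was set against the landraces in the same way. opr6 had 0.17 ± 0.14 in W23 and between 0.56 in Conico and 1.01 in Cacahuacintle, a difference of -0.58 ± 0.16 that missed the test (adjusted p = 0.0531, and -0.44 with 0.0744 with sections centred). psbs1 had 0.28 in W23 and 0.45 to 1.06 in the landraces (difference -0.33 ± 0.16, adjusted p = 0.164), and asr1 0.21 against 0.19 to 0.83 (difference -0.34 ± 0.16, adjusted p = 0.158). With sections centred these differences were -0.11 and 0.02 (adjusted p = 0.393 and 0.913), so the direction at asr1 turned. With the Conico and Cacahuacintle ratios turned the landrace means would be 0.12 at opr6, 0.22 at psbs1 and -0.03 at asr1, all below W23. As deposited, PAL1 was negative in all 6 lines, from -0.40 in Conico to -0.09 in Cacahuacintle, with W23 at -0.17 between them, and the difference was 0.06 ± 0.12 (adjusted p = 0.719). LOC100125656 was positive in all 6 lines as deposited, from 0.19 in Arrocillo to 1.22 in W23 (difference 0.45 ± 0.16, adjusted p = 0.0922).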

How the data were processed

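The deposited files hold log2 ratios per spot of 2-colour cDNA arrays; per the labels, the authors fitted analysis of variance models to log2 intensities and set a threshold for weak spots. The scaling and the numerator of the ratios are not stated in the sources used here. Their depth in reads does not apply; the number of arrays limits the precision.

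Solar UV-B arrays of the 6 lines came from 1 table of 33 columns. Columns were grouped by title. Repeated columns (Confite, Arrocillo and Cacahuacintle under both channel orders, equal up to a constant) were counted once and given a channel code of 0, and the W23 column that averages the others was left out, which leaves 9 arrays. The 3 consecutive spots of a probe were averaged and each array centred on its median. Probes measured on both W23 arrays, on at least 1 array of each landrace and on at least 75% of arrays were kept. A model with 1 coefficient per line and a shared channel term was fitted by limma 3.58.1 in R 4.3.3 (lmFit, eBayes, two-sided, Benjamini-Hochberg over all probes tested, called under 0.05), with 2 residual degrees of freedom. The W23 coefficient is the mean of its arrays. The fit was run on simulated data that assumed its shared channel term and the direction of the ratios, so neither was checked.

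Replicate numbers and channel order coincide in W23, Mishca and Conico, the 3 lines with arrays of both orders. The deviations of same-numbered arrays from their line means correlated at 0.48 (W23 and Mishca), 0.58 (W23 and Conico) and 0.88 (Mishca and Conico). A channel effect shared by the lines and a pairing of same-numbered arrays cannot be told apart here, and the channel term takes up either.

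Of 5640 probes, 399 carried 1 gene in the platform annotation, 2 several and 5239 no name; 314 of 329 genes are in RefSeq's maize table (Zm-B73-REFERENCE-NAM-5.0), which gave only their symbols. Named genes were the 10 largest called per side with the same sign on both arrays, the 5 largest called differences from the landraces per side, up to 4 per list of 15 with the largest moderated statistic, and 12 set genes (PAL1, ssu1, lhcb5, psbs1, Cab-m7, pdk1, opr6, globulin-1, pip1-2, PIP1-3, hsp101, asr1). A gene stands for its probe with the smallest p. The members, lists and tests were chosen with earlier results of these data known. Alternatives covered centring, scaling, the channel term, the replicate block, the lines fitted, repeated and averaged columns, the filter, the spot summary, moderation, array weights, the direction of the Conico and Cacahuacintle ratios and each array left out.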

Additional observations from a re-analysis of the deposited data

Results flagged for a closer look

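The tested difference between W23 and the mean of the 5 landraces passed at 800 probes, and the 10 named genes with the largest called differences were CNX (0.86), cat1 (0.70), rop7 (0.61), sgb102 (0.55), SE1B (0.55), m28 (-0.90), zap1 (-0.88), lip15 (-0.83), psiP (-0.82) and qsox1 (-0.80), in log2 units. Each was picked out because the effects in W23 and in the landraces differed by limma's test of the difference itself at an adjusted p under 0.05. That difference can hold a channel part, as the landraces with 1 array are not corrected for channel order. No groups of 4 or more W23 arrays existed in which a single array could be set apart.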

How the results depend on the processing

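The 967 W23 calls became 1874 without centring (90.9% of them positive), 1934 with the third column kept, 378 with the W23 arrays fitted alone, 240 with array weights, 2 without moderation and 0 without the channel term. Leaving out 1 array gave 721 to 2028. The 70 named genes called became 147, 124, 25, 16, 0 and 0 in the same order, and 47 to 147 with 1 array left out. The 800 differences from the landraces became 1930 with the third column kept, 476 with arrays scaled to equal spread, 444 with repeated columns in the order of their first label, 407 with the lines of both orders, 2 without moderation, and 0 with array weights, without the channel term or with the replicate number as a block. Leaving out 1 array gave 0 to 2214. As a replicate block in place of the channel, the replicate number left the W23 count at 967 and the named genes at 70 by construction. Replicate number and channel order are the same code in W23, Mishca and Conico, the lines that set the channel term. Without centring rca1 (0.0641) and PP1 (0.0745) changed side; that setting adds the array medians to all values. Sections held 19.0% of the variance on average over both arrays and 8 runs 9.65%; the runs, sections with the lines of both orders, centring by runs and the turned ratios were added after seeing the data. With the Conico ratios turned, alone or with Cacahuacintle, the W23 calls and the named genes were 0 each and the differences 0; with the channels turned too, the first 2 counts stay at 967 and 70 by construction and the differences were 230 and 0. Of the 44 called genes named by the rule, 42 kept the call with sections centred, 30 without centring, 19 with the W23 arrays alone, 12 with array weights, and 0 without moderation or without the channel term. Blank spots on array 1 limit what was tested, and the causes of the other changes were not tested.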

Other observations

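Besides zap1 and m28, 5 more genes of a set grouped here by symbol, after their values had been seen, were tested. si1, the maize silky1 gene that acts in floral organ identity, had log2 ratios of -0.26 on array 1 and -0.67 on array 2 in W23, with a mean of -0.47 ± 0.13 (SE, n = 2 arrays) that missed limma's test (adjusted p = 0.0543). zmm27 had 0.10 and -0.09, a mean of 0.00 ± 0.08 (adjusted p = 0.978). M7 had -0.68 and -0.20, a mean of -0.44 ± 0.11 that was called (adjusted p = 0.0374). The means of m1 and m4 were 0.11 ± 0.08 and 0.11 ± 0.09, with opposite signs on the arrays, and were not called (0.335 and 0.422). The difference from the landraces was called by limma at si1 (-0.74, adjusted p = 0.0367) and m1 (0.34, 0.0474). It was not called at M7 (-0.44, 0.0573), zmm27 (0.05, 0.719) or m4 (-0.15, 0.335).

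Single arrays varied in likeness more than the line means show. Across probes, W23 array 2 correlated with Mishca array 2 at r = 0.70 and with Conico array 1 at -0.43, and W23 array 1 correlated with the Confite array at 0.56 and with Conico array 2 at -0.30. In the 37 named genes with more than 1 tested probe, all probes lay on 1 side in 19, and 11 had a call, in none of which every probe was called.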
